A study of Mus musculus with 4 samples.

Results

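The transcription factor p53 and 8 of its classical target genes, Cdkn1a, Pmaip1, Mdm2, Bbc3, Bax, Ccng1, Phlda3 and Trp53inp1, were followed through single-cell RNA sequencing of the mouse lung. These 9 genes, with Trp53 itself among them, were chosen by name, with earlier results of these data known, from the 20076 genes of the deposited count matrix. All 9 were present in the matrix under these symbols. The question behind the comparison was whether lung endothelial cells (ECs) that had lost the transcription factor ERG carried a p53 or growth arrest program of the kind seen in senescent cells.

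The study compared whole lung cell suspensions of ERG fl/fl mice without Cre (WT) and of CDH5-CreER(T):ERG fl/fl mice (ERG CKO), with 2 mice and 1 library per mouse in each group. Both groups carried the floxed Erg alleles, and both received tamoxifen as 5 daily injections of 0.5 mg, 90 days before the lungs were taken. Because the Cdh5 promoter drives the recombinase, deletion was directed to endothelium. The age of the mice was not given in the labels, and the WT mice did not carry the Cre.

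p53 is a stress-activated transcription factor that is kept low by Mdm2, a ubiquitin ligase that is itself a p53 target, so that the pair form a negative feedback loop. When p53 accumulates, it induces Cdkn1a (p21), an inhibitor of cyclin-dependent kinases that holds cells in growth arrest, and a set of death genes that act at the mitochondrion. Cdkn1a is widely used as a marker of senescence, but it also responds to many signals that do not pass through p53.

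The upstream sequence of 3 of the 9 genes is shown because p53 and ERG each recognise a short DNA motif and the genes differ in which of these they hold. The 250 bases before the annotated start were taken from RefSeq (GRCm38.p6), 5′ to 3′ on the gene's own strand, for Cdkn1a at chr17:29090729-29090978 (plus strand), for Bax at chr7:45466899-45467148 (minus strand) and for Phlda3 at chr1:135765835-135766084 (plus strand). Capitals mark each p53 decamer, the 10-base unit of the p53 response element.
Cdkn1a: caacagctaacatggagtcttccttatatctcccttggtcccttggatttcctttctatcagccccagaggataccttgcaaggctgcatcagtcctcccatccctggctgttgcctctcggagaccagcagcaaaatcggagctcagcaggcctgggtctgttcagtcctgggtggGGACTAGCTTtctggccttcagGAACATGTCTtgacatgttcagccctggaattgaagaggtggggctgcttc
Bax: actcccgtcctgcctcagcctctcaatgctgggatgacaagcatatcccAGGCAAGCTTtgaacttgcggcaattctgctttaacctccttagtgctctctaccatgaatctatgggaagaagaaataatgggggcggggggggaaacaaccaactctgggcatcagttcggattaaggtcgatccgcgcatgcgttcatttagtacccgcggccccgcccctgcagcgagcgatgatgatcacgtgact
Phlda3: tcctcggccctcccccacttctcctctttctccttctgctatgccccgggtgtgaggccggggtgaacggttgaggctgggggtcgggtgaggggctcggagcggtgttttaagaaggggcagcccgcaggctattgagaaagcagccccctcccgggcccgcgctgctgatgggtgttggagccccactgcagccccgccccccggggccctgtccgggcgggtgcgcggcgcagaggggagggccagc

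Promoter sequence was matched for 7 of the 9 genes, and 5 of these, Cdkn1a, Mdm2, Bax, Ccng1 and Trp53, held a p53 decamer in the 250 bases. Of 32851 promoters searched in the same way, 2341 (7.126%) held one. In Cdkn1a the decamers began 73 and 51 bases before the start, and in Bax the decamer began 201 bases before it. A second annotated start of Cdkn1a and the 3 starts of Bbc3 had no decamer in this window. The core bound by the ETS family to which ERG belongs, GGAA on either strand, occurred 4 times in the Cdkn1a sequence and 2 times in that of Bax, and was not in the Phlda3 window, against 93.446% of all promoters with at least 1 copy. These matches describe the letters of the sequence and are not evidence of binding.

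The libraries held 9363 cells, between 1852 and 3097 in each, with total counts of unique molecular identifiers (UMIs) between 11263911 and 18646776 and a median of 4611 to 4899 UMIs per cell. ECs were recognised by their markers and numbered 572 and 683 in the WT mice and 737 and 497 in the ERG CKO mice. The tight junction gene Cldn5 stood between 4165 and 5046 CPM (counts scaled to the same library total) in ECs and between 149 and 357 CPM in all other cells. The other cells included a cluster of 916 cells, left unnamed for low depth, in which 7 endothelial markers were raised. Erg, the targeted gene, was at 86.1 and 87.8 CPM in WT ECs and at 106 and 82.2 CPM in ERG CKO ECs, but counts per gene do not separate the deleted exons from the rest of the transcript, so this level does not check the label. Some cells carried RNA of other types: the summed level of 5 erythroid markers, all detected in each library, was 35.0 and 50.9 CPM in WT ECs against 2740 and 2216 CPM in ERG CKO ECs, and that of 6 platelet markers, also all detected, was 56.3 and 186 against 305 and 176 CPM. The part of either in the results was not tested.

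Counts were summed over the cells of a class in each mouse and compared with edgeR's quasi-likelihood test, and a gene was called where p, adjusted over all genes tested by the Benjamini-Hochberg method, was 0.05 or less. With 2 mice a group, an exact permutation test on any single gene could not go below p = 0.333, so every call rests on a variance shared across genes. A log2 fold change is ERG CKO over WT throughout, with its standard error (SE).

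In all ECs, 1 of the 9 genes was called, against 2.69% of the 10692 genes tested. The called gene, Pmaip1, was lower in ERG CKO, where 1.12% of all genes were called, and none of the 9 was among the 1.57% of genes called higher. Before adjustment, 4 of the 9 had a p under 0.05, as did 1758 of the 10692 genes, and DESeq2 also called 1 of the 9. The median log2 fold change of the 9 genes was 0.15, beside 0.01 over all genes tested, with 6 folds above 0 and 3 below. The levels of ERG CKO and WT did not overlap for 5 of the 9, as was the case for 46.7% of all genes.

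**Figure D1:**
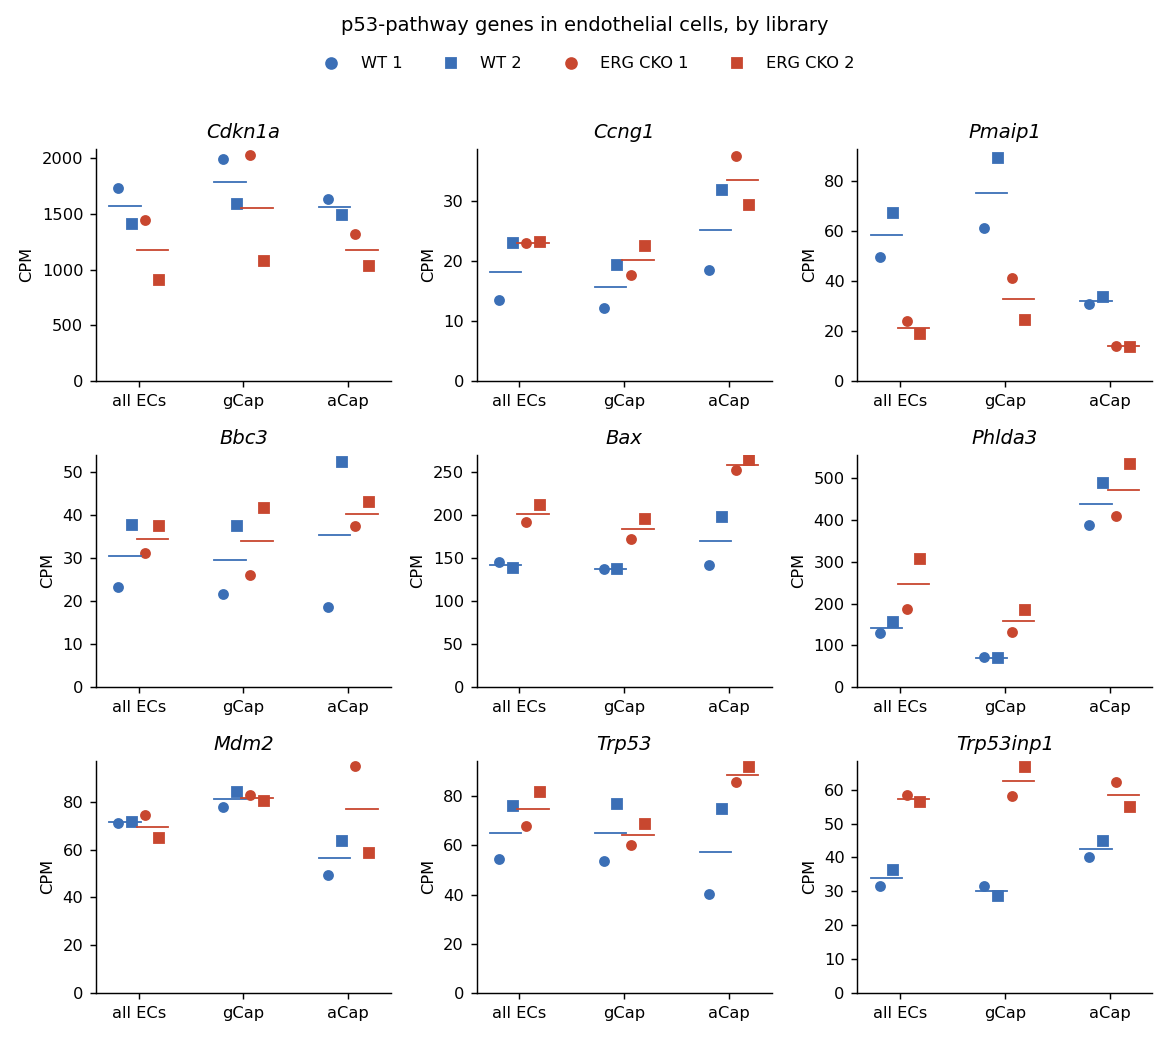
Level of each of the 9 genes (CPM, linear axes from 0) in all ECs, general capillary (gCap) ECs and aerocytes (aCap), with 1 point per library, blue for WT and red for ERG CKO, and a short line at each group mean. Pmaip1 lay lower in both ERG CKO libraries in all 3 groups of cells, whereas both Phlda3 values of ERG CKO exceeded the WT values clearly in gCap and overlapped them in aCap.

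Among the growth arrest genes, Cdkn1a was at 1733 and 1411 CPM in WT ECs and at 1450 and 904 CPM in ERG CKO ECs. One ERG CKO mouse thus fell between the WT mice and the other lay below both (log2 fold change -0.45, SE 0.23, adjusted p = 0.415). Without replicate 1 of ERG CKO the same difference was -0.87 with an adjusted p of 0.00445, and without replicate 2 it was -0.14 with an adjusted p of 0.701. With all libraries and no filter on low counts it was -0.44 with an adjusted p of 0.0307, and these were the 2 of 15 alternatives that called it, the fit without ERG CKO replicate 1 being the other. In no alternative did Cdkn1a come out higher in the ECs of ERG CKO. Ccng1, a cyclin induced by p53 that takes part in the control of Mdm2, was at 13.4 and 22.9 CPM in WT and 22.9 and 23.2 CPM in ERG CKO (0.29, SE 0.26, adjusted p = 0.677). The ERG CKO mice stood at the level of the higher WT mouse.

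Of the death genes, Pmaip1 (Noxa), a BH3-only protein that neutralises Mcl1, was at 49.6 and 67.4 CPM in WT ECs and at 24.0 and 18.7 CPM in ERG CKO ECs. Both ERG CKO values were well below both WT values, and the level in ERG CKO was 0.361 times that in WT (log2 fold change -1.47, SE 0.21, adjusted p = 0.0190). The call was lost in 1 of 15 alternatives, without replicate 2 of WT, where the log2 fold change was -1.24 with an adjusted p of 0.133. The mix of ECs also differed between the groups. gCap ECs, the named subtype with most Pmaip1, were 380 of 572 and 423 of 683 ECs in WT. In ERG CKO they were 323 of 737 and 251 of 497. The part of this mix in the calls of all ECs was not tested. Bbc3 (Puma), another BH3-only killer, was at 23.1 and 37.5 CPM in WT and 31.1 and 37.3 CPM in ERG CKO, and the ERG CKO mice lay within the WT range (0.11, SE 0.24, adjusted p = 0.875). Bax, the effector that opens the outer mitochondrial membrane, was at 146 and 138 CPM in WT and at 191 and 212 CPM in ERG CKO. Both ERG CKO mice exceeded both WT mice, but the difference did not pass the test (0.47, SE 0.12, adjusted p = 0.0964). It was called in 2 of 15 alternatives.

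Phlda3, a PH-domain protein that restrains Akt, was at 129 and 155 CPM in WT ECs and at 188 and 307 CPM in ERG CKO ECs. The groups did not overlap, yet the ERG CKO mice were far from each other (0.75, SE 0.22, adjusted p = 0.139). The log2 fold change of Phlda3 ran from 0.38 to 1.08 over 15 alternatives, 4 of which called it. Trp53inp1, a nuclear cofactor that promotes p53-dependent transcription and stress-induced death, was at 31.7 and 36.2 CPM in WT and 58.3 and 56.4 CPM in ERG CKO. The replicates were close and the groups stood apart, with an adjusted p just outside the threshold (0.72, SE 0.15, adjusted p = 0.0526), and 6 of 15 alternatives called it.

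The factor itself and its inhibitor differed little. Trp53 transcript was at 54.4 and 76.0 CPM in WT ECs and 68.1 and 81.8 CPM in ERG CKO ECs (0.15, SE 0.18, adjusted p = 0.773), and the groups overlapped. Mdm2 was at 71.2 and 71.5 CPM in WT and 74.3 and 65.0 CPM in ERG CKO (-0.06, SE 0.14, adjusted p = 0.881), and the WT values lay between those of ERG CKO. p53 activity is regulated mainly through protein stability, which transcript counts do not measure.

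Capillary ECs of the lung are of 2 kinds, the gCap that serve as progenitors and the aCap, large cells specialised for gas exchange. In gCap ECs, with 380 and 423 cells in WT and 323 and 251 in ERG CKO, 3 of the 9 genes were called, against 2.19% of 9446 genes. Phlda3 and Trp53inp1 were higher in ERG CKO, as were 1.62% of all genes, and Pmaip1 was lower, as were 0.572%. DESeq2 called 1 of the 9, which was Phlda3, and no gene of the 9 was called when every cell was thinned to 1000 UMIs or when the libraries were clustered without alignment.

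Phlda3 was at 71.2 and 69.8 CPM in the gCap ECs of WT and at 132 and 186 CPM in those of ERG CKO. The WT mice were nearly equal and both ERG CKO mice lay far above them, a 2.17-fold difference (log2 fold change 1.12, SE 0.19, adjusted p = 0.00608). A Phlda3 UMI was found in 21.1% and 20.3% of gCap ECs in WT and in 37.2% and 45.0% in ERG CKO, where median depth was 3897 and 3620 UMIs against 4690 and 4136. After thinning to 1000 UMIs, with 2 to 4 cells per library too shallow to keep, a UMI remained in 7.14% and 5.73% of WT cells against 12.9% and 17.0% of ERG CKO cells. The background in T cells, whose median depth was 5871 to 6383 UMIs, was 0.698% to 1.89% in the 4 libraries, and 0% to 0.481% after thinning.

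Subtype markers differed beside Phlda3. The summed level of 7 aCap markers in gCap ECs was 428 and 456 CPM in WT against 608 and 901 CPM in ERG CKO, with 5 of the 7 higher in both ERG CKO mice, and that of 7 gCap markers was 5651 and 6085 against 4161 and 4471 CPM. Phlda3 is itself more abundant in aCap ECs, and the part of this shift in its difference was not tested.

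Phlda3 did not overlap between the groups in 3 of the 4 subclusters of gCap ECs. In the first of these the WT mice had 118 and 104 CPM against 149 and 185 for ERG CKO, in the second 66.6 and 68.9 against 174 and 252, and in the next 43.9 and 42.3 against 95.7 and 142. In the remaining one the values were 64.6 and 62.5 against 28.0 and 91.4 CPM, and the groups overlapped. The subclusters divide the cells of the same 4 mice and are not separate replicates. The share of all genes without overlap was not counted in them, and was 46.7% in all ECs.

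Trp53inp1 was at 31.6 and 28.7 CPM in the gCap ECs of WT and 58.2 and 66.7 CPM in those of ERG CKO. Both ERG CKO mice exceeded both WT mice, a 2.01-fold difference (log2 fold change 1.01, SE 0.20, adjusted p = 0.0195). Its call was lost in 4 of 14 alternatives, including DESeq2 (adjusted p = 0.245) and the fit without replicate 2 of WT. Over the 14 alternatives the log2 fold change ran from 0.52 to 1.46.

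Pmaip1 was at 61.1 and 89.2 CPM in the gCap ECs of WT and at 41.2 and 24.3 CPM in those of ERG CKO. The groups did not overlap (log2 fold change -1.18, SE 0.26, adjusted p = 0.0318). These sums rest on 91 and 143 UMIs for WT and 68 and 27 for ERG CKO, and the call was lost in 5 of 14 alternatives. In the first 3 subclusters Pmaip1 was 16.9 and 42.3 CPM for WT against 12.2 and 2.15 for ERG CKO, 66.6 and 128 against 37.4 and 62.0, and 89.7 and 103 against 72.6 and 27.8. Each time both ERG CKO mice were below both WT mice, and in the remaining subcluster no Pmaip1 UMI was found. These values divide the same few UMIs of the same mice, so they are not repeated results. The share of all genes placed in this way was not counted.

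Cdkn1a was not called in gCap ECs, where 1 ERG CKO mouse held the highest level of all 4 (1989 and 1588 CPM in WT, 2030 and 1081 CPM in ERG CKO, log2 fold change -0.23, SE 0.24, adjusted p = 0.794). Leaving out that mouse, replicate 1, gave -0.79 with an adjusted p of 1.6e-05, and leaving out replicate 2 gave 0.17 with an adjusted p of 0.693. The sign of the Cdkn1a difference in gCap ECs therefore depended on which ERG CKO mouse was kept. Bax was at 138 and 137 CPM in WT and 172 and 196 CPM in ERG CKO and did not pass (0.38, SE 0.15, adjusted p = 0.313). Mdm2, Bbc3, Ccng1 and Trp53 had log2 fold changes between -0.07 and 0.29 in gCap ECs, none of them called.

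In aCap ECs, 43 and 73 cells in WT and 103 and 86 in ERG CKO, none of the 9 genes was called by edgeR or by DESeq2, although 10.3% of the 6803 genes tested were, 4.89% higher and 5.37% lower. The cells of this class were not alike in the 2 groups: the 7 aCap markers summed to 12136 and 11440 CPM in WT against 4488 and 6686 CPM in ERG CKO, each of the 7 lower in both ERG CKO mice, and without alignment of the libraries 4 and 1 ERG CKO cells were left in it. The 7 gCap markers in these cells summed to 1552 and 1256 against 930 and 759 CPM. Before adjustment, 3 of the 9 had a p under 0.05, as did 1417 of the 6803 genes. Pmaip1 was again lower in both ERG CKO mice, at 30.8 and 33.6 CPM in WT and 14.0 and 13.7 CPM in ERG CKO, but at this depth the difference did not pass (log2 fold change -1.24, SE 0.45, adjusted p = 0.110). Cdkn1a was at 1635 and 1491 CPM in WT and 1321 and 1034 CPM in ERG CKO, with both ERG CKO mice below both WT mice (-0.43, SE 0.18, adjusted p = 0.168). Bax was at 142 and 198 CPM in WT and 252 and 264 CPM in ERG CKO (0.55, SE 0.21, adjusted p = 0.119). Mdm2, Bbc3, Ccng1, Trp53 and Trp53inp1 were not called either, with log2 fold changes from 0.03 to 0.53.

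Phlda3 behaved otherwise in aCap ECs. It was at 388 and 489 CPM in WT and 410 and 534 CPM in ERG CKO, and the groups overlapped (log2 fold change 0.07, SE 0.19, adjusted p = 0.902). The difference between its changes in aCap and gCap ECs was tested as an interaction of genotype and subtype with the mouse as a block. Both subtypes also differed in their own markers between the groups, as given above, and the part of that in the interaction was not tested. The difference was -1.04 on the log2 scale (SE 0.21, adjusted p = 0.00148), and Phlda3 was the one gene of the 9 called, against 6.34% of 8978 genes. Without replicate 2 of WT the difference was -0.82 with an adjusted p of 0.0887. For Trp53inp1 the corresponding difference was -0.57 (adjusted p = 0.489) and for Trp53 it was 0.65 (adjusted p = 0.281).

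**Figure D2:**
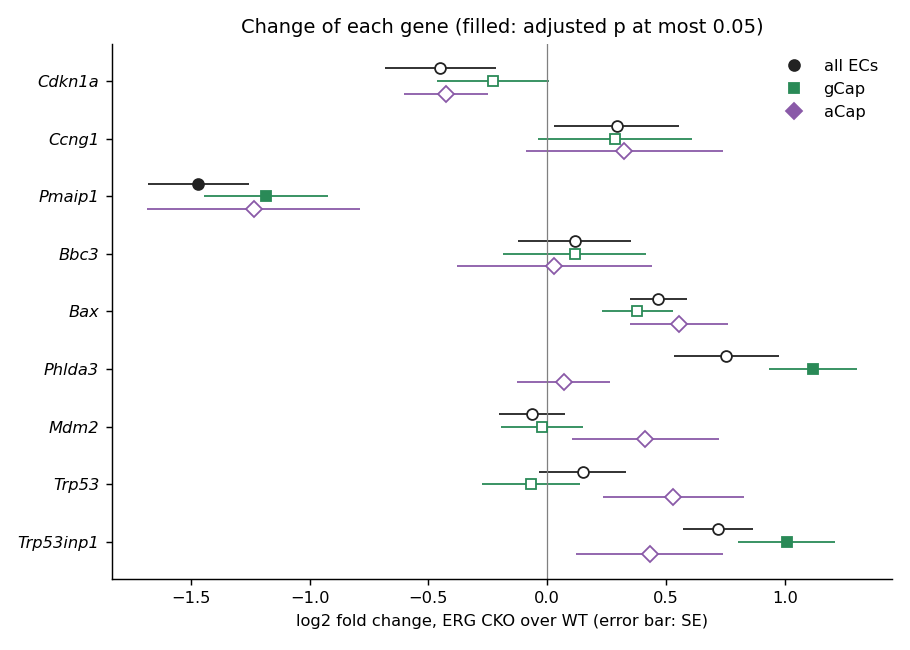
Log2 fold change of ERG CKO over WT for each gene in all ECs (circles), gCap ECs (squares) and aCap ECs (diamonds), with the SE as the error bar and filled symbols for an adjusted p of at most 0.05. Filled symbols are those of Pmaip1 in all ECs and gCap ECs and of Phlda3 and Trp53inp1 in gCap ECs, and the aCap symbol of Phlda3 lies near 0.

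The larger vessels held few cells. In artery ECs, 20 to 27 cells per library, 4 of the 9 genes could be tested, and 0% of 2590 genes were called by edgeR, the 4 included, none of which had an unadjusted p under 0.05. In vein ECs, 20 to 70 cells per library, 6 of the 9 could be tested and none was called, against 0.142% of 4924 genes. An unadjusted p under 0.05 was held by 416 of the 4924 genes and by 1 of the 6. That one was Trp53inp1, at 12.3 and 27.1 CPM in WT and 48.2 and 59.5 CPM in ERG CKO (log2 fold change 1.23, SE 0.50, adjusted p = 0.515), which rest on 3 and 9 UMIs against 29 and 8. Cdkn1a in vein ECs was at 1196 and 1070 CPM in WT and 965 and 178 CPM in ERG CKO, the last from 20 cells (-0.95, SE 0.47, adjusted p = 0.637). In both genes the groups did not overlap.

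The change of Pmaip1 in ECs was then compared with that in the rest of the lung. In all cells other than ECs it was at 43.2 and 62.6 CPM in WT and at 76.0 and 77.6 CPM in ERG CKO, so that there the ERG CKO mice were the higher ones (log2 fold change 0.56, SE 0.23, adjusted p = 0.974). This sum mixes classes whose numbers differed: dendritic cells, one of the classes with most Pmaip1, numbered 22 and 29 for WT and 87 and 38 for ERG CKO, and the part of such shifts was not tested. It also holds the unnamed low-depth cluster of 916 cells with raised endothelial markers, whose part was not tested either. The interaction of genotype and compartment gave a difference of -2.02 for ECs minus other cells (SE 0.22, adjusted p = 0.00198). Pmaip1 was the one gene of the 9 called in this test, against 1.07% of 13588 genes, and the call was lost without either WT mouse, where the highest adjusted p was 0.162. For Cdkn1a the same difference was -0.12 (adjusted p = 0.943), for Phlda3 0.58 (adjusted p = 0.445) and for Trp53inp1 0.50 (adjusted p = 0.392). Over all lung cells together, 0% of 14154 genes were called, and none of the 9 by edgeR or DESeq2. An unadjusted p under 0.05 was held by 1 of the 9, beside 1077 of all genes.

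The platelet-marked subcluster of ECs also held Pmaip1, at 151 and 154 CPM in WT and 24.4 and 9.63 CPM in ERG CKO. Without the EC subclusters that carried platelet or B cell markers, a setting chosen after seeing the data, the difference of Pmaip1 in ECs was -1.39 with an adjusted p of 0.0141. A further unnamed EC cluster showed both patterns: Pmaip1 was 59.4 and 80.2 CPM in WT against 16.6 and 24.5 in ERG CKO, and Phlda3 was 66.0 and 46.8 CPM against 151 and 299. Values of the remaining unnamed EC clusters are not given here.

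In 10 classes of other lung cells, 73 of the 90 pairs of a gene and a class could be tested, and edgeR called none of them, against 0.174% of the 58623 pairs over all genes. Before adjustment 8 of the pairs had a p under 0.05, and DESeq2 called 0. Over all genes the share under 0.05 was lowest in platelets (49 of 1493) and highest in dendritic cells (488 of 5047). Cdkn1a had a log2 fold change below 0 in 9 of the 10 classes, neutrophils being the exception at 0.39. In 5 of the 10 both ERG CKO mice lay below both WT mice, which held for 17.4% of all pairs of a gene and a class.

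Cdkn1a in T cells was at 73.9 and 81.0 CPM in WT and 46.3 and 39.6 CPM in ERG CKO (log2 fold change -0.82, SE 0.16, adjusted p = 0.0639). In B cells it was at 59.5 and 58.7 CPM in WT and 26.4 and 33.5 CPM in ERG CKO (-0.96, SE 0.25, adjusted p = 0.177). In alveolar macrophages, where it was far more abundant, it was at 944 and 923 CPM in WT and 622 and 663 CPM in ERG CKO (-0.53, SE 0.11, adjusted p = 0.327). The groups stood apart in each of these classes, though none passed the test, and T cells were called in 5 of 14 alternatives.

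Cdkn1a in non-classical monocytes was at 608 and 486 CPM in WT and 308 and 405 CPM in ERG CKO (log2 fold change -0.66, SE 0.18, adjusted p = 0.463), again without overlap. Pmaip1 could be tested in 9 of the 10 classes, with a log2 fold change below 0 in 4 and above 0 in 5. In neutrophils it was at 180 and 208 CPM in WT and 63.1 and 147 CPM in ERG CKO (-0.90, SE 0.42, adjusted p = 0.977), and in fibroblasts at 17.9 and 29.2 CPM in WT and 12.6 and 14.9 CPM in ERG CKO (-0.74, SE 0.48, adjusted p = 0.774). In these 2 classes both ERG CKO mice lay below both WT mice, as in ECs. In dendritic cells they lay above, at 238 and 193 CPM in WT and 375 and 305 CPM in ERG CKO (0.68, SE 0.20, adjusted p = 0.225). Phlda3 could be tested in 4 of the 10 classes, and its groups overlapped in each.

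Immediate early genes that respond to tissue dissociation were lower in summed level in ERG CKO ECs, as Cdkn1a was in mean level. The summed level of 13 such genes was 19976 and 21301 CPM in WT ECs against 16096 and 15367 CPM in ERG CKO ECs. In gCap ECs it was 22912 and 24118 against 18555 and 17516 CPM, and in aCap ECs it ran the other way, 9442 and 10529 against 17034 and 12049 CPM. In alveolar macrophages, where Cdkn1a was also lower, the sum was 9481 and 9191 in WT against 9327 and 9208 CPM in ERG CKO. Mean Cdkn1a was lower in fibroblasts and vein ECs too. There the sums were 16759 and 17303 against 12187 and 12824 CPM, and 20756 and 25314 against 14045 and 9375 CPM. The median share of mitochondrial UMIs in ECs was 3.67% and 3.71% for WT against 4.15% and 3.87% for ERG CKO. The part of the dissociation response in the level of Cdkn1a was not tested.

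Other genes of the pathway were taken as 7 lists, none of which includes the 9 genes above. In all ECs, 8 genes of the 7 lists were called, all of them higher in ERG CKO. Of all 10692 genes tested there, 1.57% were called higher and 1.12% lower, and 1758 had an unadjusted p under 0.05. Of 36 p53 targets, 29 could be tested, 2 rose and none fell (median log2 fold change 0.17, beside 0.01 over all genes), with 8 at an unadjusted p under 0.05 and 3 called by DESeq2. Of 21 regulators of p53, 16 were tested, 1 rose and none fell (median 0.00), with 1 at an unadjusted p under 0.05. Of 17 growth arrest genes and inhibitors of cyclin-dependent kinases, all 17 were tested, 1 rose and none fell (median -0.09), with 10 at an unadjusted p under 0.05, 6 of them lower in ERG CKO.

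Among the p53 targets, Gdf15, a stress-induced cytokine of the TGF-beta family, was at 5.59 and 6.04 CPM in WT ECs and 36.5 and 29.5 CPM in ERG CKO ECs (log2 fold change 2.47, SE 0.24, adjusted p = 0.00852). Cd82, a tetraspanin that limits cell migration, was at 11.9 and 10.2 CPM in WT and 32.0 and 23.5 CPM in ERG CKO (1.32, SE 0.25, adjusted p = 0.0408). Both stood well apart between the groups.

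Hipk2, a kinase that phosphorylates p53, was the regulator that rose, from 72.3 and 74.7 CPM in WT to 132 and 134 CPM in ERG CKO (log2 fold change 0.82, SE 0.12, adjusted p = 0.0190). Cdkn2c (p18), an inhibitor of the kinases Cdk4 and Cdk6, was the growth arrest gene that rose, from 12.3 and 12.7 CPM to 32.8 and 33.2 CPM (1.36, SE 0.19, adjusted p = 0.0165). In both cases the replicates nearly coincided.

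Of 20 genes of senescence and its secretome, 16 were tested, with 6 at an unadjusted p under 0.05 (median log2 fold change 0.03). Of the 16, 3 rose and none fell, beside 1.57% and 1.12% of all genes. The values of 2 of these 3 are given here. Cxcl1, a neutrophil-attracting chemokine, rested on 1 and 5 UMIs in WT against 71 and 70 in ERG CKO (log2 fold change 4.22, SE 0.54, adjusted p = 0.0141). Gpx3, a secreted glutathione peroxidase, was at 49.9 and 56.9 CPM in WT and 96.8 and 86.3 CPM in ERG CKO (0.74, SE 0.14, adjusted p = 0.0441), a call lost in 8 of 15 alternatives. Cxcl1 and Gpx3 are also regulated by many signals outside senescence.

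None of the 12 tested genes of the BCL2 family, of 14 listed, was called by edgeR (3 at an unadjusted p under 0.05) or by DESeq2, and the median log2 fold change was 0.04. Of 17 proliferation genes 5 could be tested, none was called by edgeR or DESeq2, and 2 had an unadjusted p under 0.05 (median -0.46). Of the 13 dissociation genes, 12 had a log2 fold change below 0 (median -0.40, 9 at an unadjusted p under 0.05), and the 1 called by edgeR, Nr4a1, an orphan nuclear receptor, was higher, from 98.0 and 77.3 CPM in WT to 152 and 167 CPM in ERG CKO (0.83, SE 0.15, adjusted p = 0.0344). Without replicate 2 of WT none of these list genes was called in ECs.

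**Figure D3:**
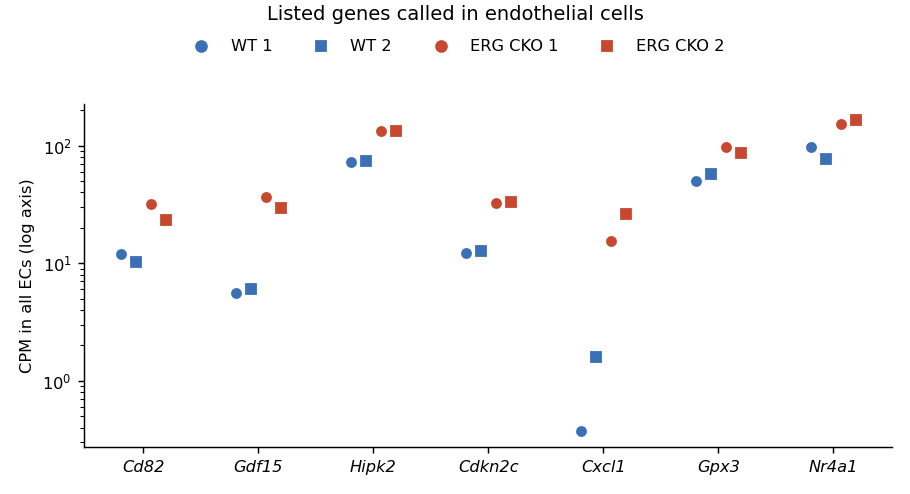
Level in all ECs (CPM, log axis) of 7 of the 8 listed genes called, with 1 point per library, blue for WT and red for ERG CKO. Both ERG CKO points lie above both WT points for each gene, from Cxcl1 at 0.373 and 1.59 CPM in WT to Nr4a1 at 152 and 167 CPM in ERG CKO.

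Levels were then compared across 14 classes, the 10 named classes of other cells and the 4 EC subtypes, as a description by the mean of the WT mice. Cdkn1a was highest in gCap ECs (1789 CPM) and aCap ECs (1563 CPM), which overlapped each other in WT, followed by vein ECs (1133 CPM) and alveolar macrophages (934 CPM). It was lowest in B cells (59.1 CPM), and 5 of the 13 neighbouring pairs in the order overlapped in WT.

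Phlda3 was highest in aCap ECs at a WT mean of 438 CPM, followed by artery ECs at 176, fibroblasts at 154 and vein ECs at 143 CPM, and gCap ECs came lower at 70.5 CPM. B cells were lowest at 1.22 CPM, and 8 of the 13 neighbouring pairs overlapped. ERG CKO and WT overlapped in aCap, the subtype with the highest WT level of Phlda3, and also in artery and vein ECs. In gCap ECs they did not overlap, and both ERG CKO mice remained below the aCap level of either group.

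Pmaip1 had its highest WT means outside the endothelium, in non-classical monocytes (249 CPM), dendritic cells (215 CPM), neutrophils (194 CPM) and classical monocytes (122 CPM). gCap ECs followed at 75.1 CPM and aCap ECs stood at 32.2 CPM, with platelets lowest at 10.9 CPM. Of the 13 neighbouring pairs, 8 overlapped.

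**Figure D4:**
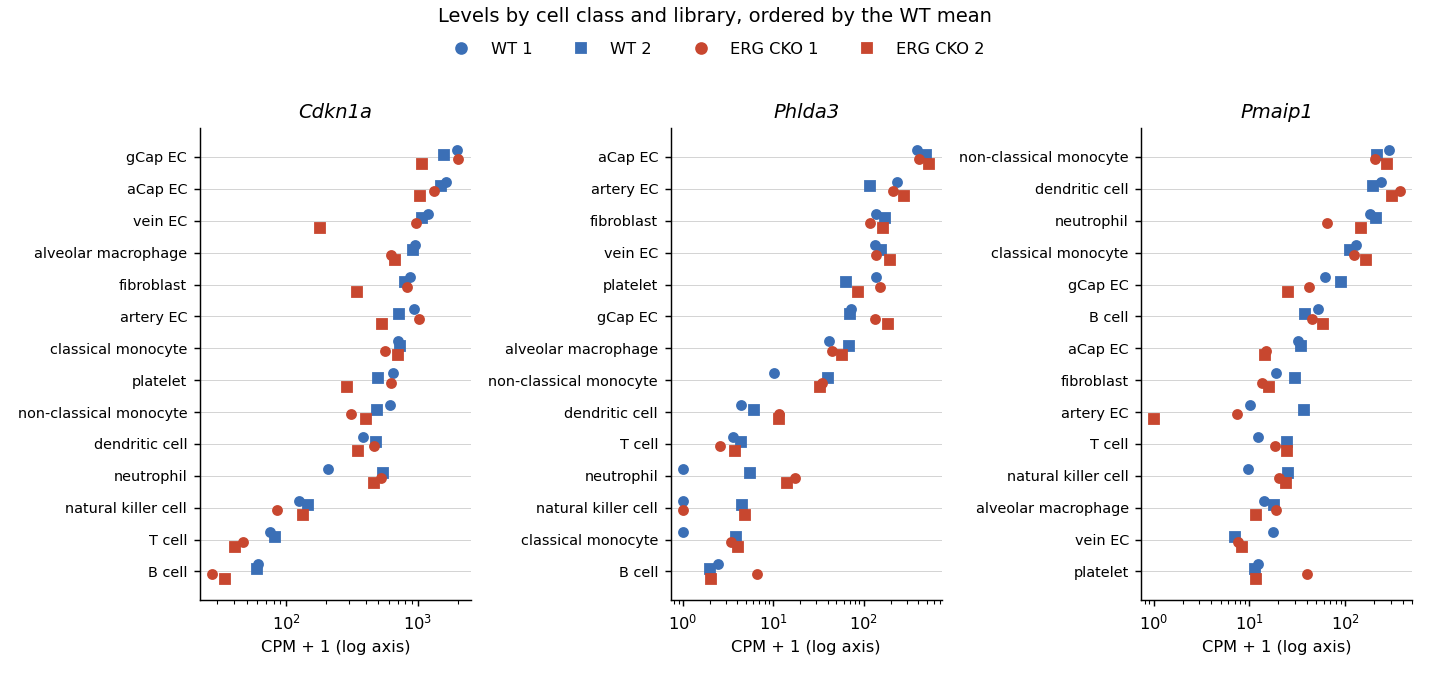
Levels of Cdkn1a, Phlda3 and Pmaip1 (CPM + 1, log axis) in 14 cell classes ordered by the WT mean, with 1 point per library, blue for WT and red for ERG CKO. Cdkn1a leads in capillary ECs, Phlda3 in aCap ECs, and Pmaip1 in non-classical monocytes and dendritic cells.

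Of the other genes, Bax ran from 170 CPM in aCap ECs to 40.8 CPM in neutrophils, with 11 of 13 neighbouring pairs overlapping. Mdm2 ran from 140.5 CPM in neutrophils to 28.2 CPM in artery ECs (11 of 13), and Bbc3 from 107 CPM in platelets to 4.64 CPM in alveolar macrophages (11 of 13). Trp53 was highest in natural killer, B and T cells, up to 108 CPM, and lowest in neutrophils at 9.04 CPM (9 of 13). Ccng1 ran from 75.0 CPM in alveolar macrophages to 14.3 CPM in B cells (11 of 13), and Trp53inp1 from 85.0 CPM in fibroblasts to 16.1 CPM in non-classical monocytes (10 of 13).

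The genes most like each of these in level were sought among 11800 genes by Pearson's r of log2(CPM + 1) over 56 points, the 14 classes in 4 libraries, where points of 1 library share its depth and points of 1 class its cell type. Phlda3 was most like Cyb561 (r = 0.919), Rock2 (r = 0.913) and Rab12 (r = 0.908), and Cdkn1a was most like Itpripl2 (r = 0.88), App (r = 0.872) and Ltbr (r = 0.869). Pmaip1 was most like Plbd1 (r = 0.834), Ebi3 (r = 0.827) and Slc36a3os (r = 0.80). For Trp53 the closest was Exosc8 (r = 0.908) and for Trp53inp1 it was Rev3l (r = 0.770).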

How the data were processed

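Whole lungs were dissociated with enzymes and single-cell libraries were made on the 10x GemCode platform. Per the submitters' processing notes, reads were processed with Cell Ranger 3.1.0 on mm10. The deposited matrix holds raw counts of UMIs per gene and cell, which the authors did not normalize, for 20076 genes (13 symbols occur more than once). The lowest cell had 500 UMIs. Intervals and tests on counts take the mouse as the replicate, and nothing in the labels says whether the mice of a group were handled separately.

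Libraries were aligned (CCA) and clustered in Seurat 5.3.0 with 2000 variable genes, 30 dimensions and a resolution of 0.8, and ECs again with 20 dimensions at 0.6. Clustering did not use the listed genes, Erg, Xist, Y-linked or hemoglobin genes. Names came from marker lists, needing 3 markers. The naming of EC subtypes by a mean marker fold above 0, and an exception for mesenchymal clusters, were set after seeing the data. Scrublet (scanpy 1.11.5) marked 60 cells (0.641%) as doublets, and they were kept. Libraries shared 7 barcodes. Cells with more than 10% mitochondrial UMIs, 5.81% to 11.8% of a library, were kept. Replicate 1 of each group was Xist-positive and replicate 2 expressed Y-linked Ddx3y, so sex was balanced between the groups and coincides with the replicate number.

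Counts were summed per class and mouse (classes of at least 20 cells in every library) and tested with edgeR 4.0.16 (TMM, filterByExpr, quasi-likelihood, Benjamini-Hochberg) in R 4.3.3, after tests on simulated data. Replicates differed beyond sampling noise (chi-square per degree of freedom 15.9 in WT and 17.4 in ERG CKO). Interactions had the mouse as a block. Alternatives were DESeq2 1.42.0, its size factors, no filter on low counts, each replicate left out, a replicate block, no doublets, at most 10% mitochondrial UMIs, thinning to 1000 UMIs, no alignment, a resolution of 0.4 and leaving out, gene by gene, the cell with most UMIs. Promoter sequences came from RefSeq (GRCm38.p6), with no rows for Pmaip1 and Trp53inp1.

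The genes and lists were chosen with earlier results of these data known, and the lower Pmaip1 in ECs was one of those results, so it is not independent support. Named genes are the 9 genes, up to 4 genes per list called in all ECs by size of change, up to 3 genes most like each gene in level, and Erg. Cldn5 is a cell type marker. The further genes of the closing section stand outside this rule and were chosen after their values were seen. The values of 1 gene called in ECs are not reported here. Of the lists, 2 symbols (Cop1, Tp53bp1) were not matched.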

Additional observations from a re-analysis of the deposited data

Results flagged for a closer look

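Among the 9 genes, the change of Pmaip1 differed between compartments: an interaction test of genotype with compartment gave -2.02 on the log2 scale for ECs minus all other lung cells (SE 0.22, adjusted p = 0.00198). Pmaip1 fell in ECs by 1.47 on the log2 scale, while in the other cells the fitted change was 0.56 and was not called. The other cells included an unnamed low-depth cluster of 916 cells with raised endothelial markers. Single classes of other cells differed, with neutrophils at -0.90, fibroblasts at -0.74 and dendritic cells at 0.68, none of them called. Leaving out 1 replicate at a time gave -2.33 to -1.79, with the call lost without WT replicate 1 or WT replicate 2.

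The change of Phlda3 differed between the capillary subtypes: the interaction of genotype with subtype gave -1.04 for aCap minus gCap ECs (SE 0.21, adjusted p = 0.00148). Phlda3 rose in gCap ECs and its groups overlapped in aCap ECs. Leaving out 1 replicate at a time gave -1.24 to -0.82, with the call lost without WT replicate 2. The aCap values rest on 43 to 103 cells per library, in which the 7 aCap markers summed to 12136 and 11440 CPM in WT and 4488 and 6686 CPM in ERG CKO.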

How the results depend on the processing

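Genes of the 9 called in all ECs numbered 1, but 5 without the filter on low counts, 4 with a replicate block, 2 each without doublets, after thinning, without alignment and without the EC subclusters of platelet or B cell markers (added after seeing the data), and 0 to 3 with 1 replicate left out. In gCap ECs the count of 3 became 1 with DESeq2, 0 after thinning, 0 without alignment, and 1 to 4 with 1 replicate left out. In aCap ECs it was 0 to 1 with 1 replicate left out, and aCap ECs could not be fitted without alignment (4 and 1 cells in ERG CKO). In the other classes the count of 0 became 3 with no filter, 4 with the replicate block, 1 at a mitochondrial limit of 10%, 1 without the highest cell, and 0 to 2 with 1 replicate left out. Genes whose change differed numbered 0 to 2 between compartments and 0 to 1 between capillary subtypes with 1 replicate left out.

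For the lists in ECs, no filter gave 6 p53 targets, 9 growth arrest, 2 BCL2, 9 senescence and 7 dissociation genes. The replicate block gave 6 growth arrest, 2 BCL2, 6 senescence and 6 dissociation genes. Thinning gave 1 p53 target, 0 regulators, 1 senescence and 4 dissociation genes. DESeq2 gave 4 dissociation genes, and leaving out the highest cell gave 1 p53 target. With 1 replicate left out the counts were 0 to 5 p53 targets, 0 to 1 regulators, 0 to 5 growth arrest, 0 to 1 BCL2, 0 to 7 senescence and 0 to 8 dissociation genes. The causes were not tested. An arm left with 1 mouse was assumed to vary like the other.

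The sign turned for Mdm2 after thinning (0.065 in all ECs, 0.18 in gCap) and for Ccng1 in gCap without alignment (-0.17). With 1 replicate left out, log2 fold changes ran in all ECs from -0.21 to 0.036 for Mdm2, -0.18 to 0.51 for Bbc3, -0.028 to 0.74 for Ccng1 and -0.065 to 0.41 for Trp53. In gCap ECs they ran from -0.79 to 0.17 for Cdkn1a, -0.078 to 0.027 for Mdm2, -0.21 to 0.57 for Bbc3 and -0.29 to 0.21 for Trp53, and in aCap ECs from -0.13 to 0.26 for Phlda3. Replicate numbers are not known to pair the mice: the deviations of same-numbered mice correlated at 0.289 over genes, from 2 pairs, and sex goes with the number. Depth limits genes under about 10 CPM, many of which could not be tested in the small classes.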

Other observations

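Listed genes were also counted in each capillary subtype. In the aCap class the subtype's own markers were lower in ERG CKO (12136 and 11440 CPM against 4488 and 6686 CPM over 7 genes), and without alignment 4 and 1 ERG CKO cells were left in the class, so a change within aCap cells and a change in which cells the class holds cannot be told apart. In aCap ECs, 5 of 22 tested p53 targets rose and 1 fell, beside 4.89% and 5.37% of all genes. Those that rose included Cd82 (log2 fold change 3.85), Gdf15 (2.34), Ephx1, an epoxide hydrolase (1.98), and Btg2, an antiproliferative gene (1.37), and the one that fell was the death receptor Fas (-0.72). Ephx1 was at 43.1 and 52.2 CPM in the aCap ECs of WT and 187 and 205 CPM in those of ERG CKO, beside 135 and 152 CPM in the gCap ECs of WT. Btg2 was at 668 and 679 CPM and at 2008 and 1523 CPM, beside 2279 and 2520 CPM. Cd82 and Gdf15 reached levels above those of WT gCap ECs, Cd82 at 59.2 and 48.9 CPM beside 7.38 and 6.86 and Gdf15 at 128 and 97.8 CPM beside 6.04 and 2.49. In gCap ECs none of 25 tested p53 targets was called by edgeR or DESeq2, and 4 had an unadjusted p under 0.05, beside 1156 of all 9446 genes. The difference between the subtypes was not tested for these genes, which were chosen after their values were seen.

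In gCap ECs 2 of 15 tested growth arrest genes rose, beside 1.62% of all genes, and DESeq2 called 1 of the list. They were the inhibitors of Cdk4 and Cdk6 Cdkn2b (3.48 on the log2 scale) and Cdkn2c (1.66). The survival gene Bcl2l1 rose by 0.94, and DESeq2 called none of its list. Cdkn2b reached 26.1 and 60.4 CPM in ERG CKO, beside 191 and 205 CPM in WT aCap ECs. Bcl2l1 reached 119 and 105 CPM, beside 142 and 149 CPM. In aCap ECs 3 of 12 tested growth arrest genes rose and 1 fell. In aCap ECs the apoptosis gene Bik rose by 3.03, to at most 88.0 CPM beside 59.1 and 68.0 CPM in WT gCap ECs, and the kinase gene Hipk2 by 1.83, to 151 and 99.7 CPM beside 85.9 and 94.2 CPM. There the senescence list, with 10 genes tested, had 2 that rose and 4 that fell, Il1a (-3.20) and Igfbp7 (-1.32) among them. Of all genes 4.89% rose and 5.37% fell there. In gCap ECs 4 of 12 tested senescence genes rose and none fell, beside 1.62% and 0.572% of all genes, and DESeq2 called 2. Igfbp7 rose there (1.22), from 117 and 106 CPM in WT to 165 and 375 CPM, beside 7052 and 7646 CPM in WT aCap ECs. Of the 13 dissociation genes, 5 rose in aCap ECs, beside 4.89% of all genes, and the median log2 fold change was 0.67. In gCap ECs 1 of the 13 rose and 1 fell, and the median was -0.40. These genes too were chosen after their values were seen.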
